A study of Mus musculus with 6 samples.

Results

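Plasma cells of mouse bone marrow that express a reporter of Aire, called pc-BMACs, were set against plasma cells without the reporter by their open chromatin. The members are the stretches of DNA where the peak lists of these populations disagree. Peaks of the 2 pc-BMAC and 2 plasma cell libraries were merged at any overlap of 1 bp or more into 51300 regions, and a region was taken as differing when both libraries of one population and neither library of the other had a peak in it. By this rule 9267 regions differed. Of these, 4279 (8.34% of the merged regions) were pc-BMAC-only and 4988 (9.72%) were plasma-cell-only, while 23971 were called in all 4 libraries and the other 18062 had a mixed pattern. The lists of the whole series, which also hold immature B cells, merge into 69171 regions.

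All cells came from bone marrow of naive Adig mice on the Balb/c background, so every library carries the reporter transgene. The pc-BMACs were sorted as AireGFP+B220-CD138+TACI+ and the plasma cells as AireGFP-B220-CD138+TACI+, so the reporter alone separates the gates. Immature B cells, sorted as AireGFP-B220+CD138-TACI-IgM+ (2 libraries), took no part in the calling and serve as an outside readout. The assay was ATAC-seq, in which a transposase cuts accessible DNA, on 2000 to 15000 sorted cells per experiment. The age of the mice is not given in the sources used here, nor do these say if the paired libraries were made from different mice.

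Aire is the autoimmune regulator, a nuclear protein that lets thymic epithelial cells transcribe genes otherwise restricted to peripheral tissues, so that T cells reactive to those products are removed. In the Adig reporter, Aire regulatory DNA on an artificial chromosome drives a fusion of GFP with Igrp, the product of G6pc2. Plasma cells are the antibody-secreting end stage of the B lineage: the transcription factors Blimp-1 (Prdm1), Irf4 and Xbp1 install the secretory programme and shut off B cell factors such as Pax5 and Bach2, and CD138 (Sdc1), TACI (Tnfrsf13b) and BCMA (Tnfrsf17) mark their surface.

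The deposited files state only where peaks were called. The 4 lists held 34070 to 38607 peaks with median widths of 404 to 523 bp, the pc-BMAC peaks being the wider ones, and the read depth behind them is unknown. The lack of a peak does not show that DNA was closed there. With 2 libraries against 2 the smallest two-sided exact permutation p over libraries is 0.333, so no test was made and all counts are descriptions. The libraries plasma cells 1 and pc-BMACs 2 carry the same R number in their labels, whose meaning is not stated. As a check of the lists, the start sites of 12 of 12 housekeeping genes (Gapdh, Ppia, Tbp and others) lay in a peak in each of the 6 libraries.

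The clearest view of the comparison comes from gene starts, where sequence and chromatin can be set side by side. RefSeq start windows of the GRCm38.p6 assembly reach from 250 bases before to 50 bases after each start. Of 17491 genes with such a window, 140 (0.8%) had one in a pc-BMAC-only region and 165 (0.943%) in a plasma-cell-only region. The 250 bases before the start are shown for 7 of these genes. They were picked after their values were seen, and they do not span the range of base composition of the pc-BMAC-only starts. Sequences are from RefSeq (GRCm38.p6), 5′ to 3′ on the gene's strand, and capitals mark matches to the searched motifs that are named further on. A window counts when any part of it overlaps a differing region. Of the 300 bases of the window, the region held 300 for Negr1 and Tnf, 209 for Gata2, 231 for Prf1, 179 for Il7r, 143 for Tbx21 and 125 for Erg, so some bases shown lie outside it.
Negr1 (window overlapping a pc-BMAC-only region, chr3:156561544-156561793, plus strand): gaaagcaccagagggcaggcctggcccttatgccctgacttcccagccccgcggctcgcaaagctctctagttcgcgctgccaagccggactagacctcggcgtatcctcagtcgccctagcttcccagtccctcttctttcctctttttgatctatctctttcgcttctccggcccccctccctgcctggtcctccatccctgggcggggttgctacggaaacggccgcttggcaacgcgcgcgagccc
Gata2 (window overlapping a pc-BMAC-only region, chr6:88198414-88198663, plus strand): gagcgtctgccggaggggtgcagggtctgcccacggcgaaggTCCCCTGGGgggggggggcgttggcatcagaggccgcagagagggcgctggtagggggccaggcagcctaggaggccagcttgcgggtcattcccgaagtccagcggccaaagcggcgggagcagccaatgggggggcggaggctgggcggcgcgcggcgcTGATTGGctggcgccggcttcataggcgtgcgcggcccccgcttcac
Tnf (window overlapping a pc-BMAC-only region, chr17:35202008-35202257, minus strand): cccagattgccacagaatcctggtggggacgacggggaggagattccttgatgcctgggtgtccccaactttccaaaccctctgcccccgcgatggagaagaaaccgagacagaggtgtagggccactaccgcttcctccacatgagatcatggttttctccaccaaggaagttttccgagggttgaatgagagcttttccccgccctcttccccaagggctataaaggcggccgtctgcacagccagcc
Erg (window overlapping a plasma-cell-only region, chr16:95459349-95459598, minus strand): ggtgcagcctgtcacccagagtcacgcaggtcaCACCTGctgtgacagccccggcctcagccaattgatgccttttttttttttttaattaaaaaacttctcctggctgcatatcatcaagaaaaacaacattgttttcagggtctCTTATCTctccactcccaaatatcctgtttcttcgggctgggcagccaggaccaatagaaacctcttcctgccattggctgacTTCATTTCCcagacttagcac
Il7r (window overlapping a plasma-cell-only region, chr15:9529877-9530126, minus strand): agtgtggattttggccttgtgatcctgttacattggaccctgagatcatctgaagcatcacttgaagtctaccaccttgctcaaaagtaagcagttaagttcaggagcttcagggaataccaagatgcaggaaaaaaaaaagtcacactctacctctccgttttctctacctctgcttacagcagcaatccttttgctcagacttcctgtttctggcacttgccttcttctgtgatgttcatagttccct
Prf1 (window overlapping a plasma-cell-only region, chr10:61297586-61297835, plus strand): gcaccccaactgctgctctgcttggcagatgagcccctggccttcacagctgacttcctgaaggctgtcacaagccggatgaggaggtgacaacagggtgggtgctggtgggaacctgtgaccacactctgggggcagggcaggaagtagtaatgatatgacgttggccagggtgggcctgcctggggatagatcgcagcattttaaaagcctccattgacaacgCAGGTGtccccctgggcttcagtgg
Tbx21 (window overlapping a plasma-cell-only region, chr11:97115332-97115581, minus strand): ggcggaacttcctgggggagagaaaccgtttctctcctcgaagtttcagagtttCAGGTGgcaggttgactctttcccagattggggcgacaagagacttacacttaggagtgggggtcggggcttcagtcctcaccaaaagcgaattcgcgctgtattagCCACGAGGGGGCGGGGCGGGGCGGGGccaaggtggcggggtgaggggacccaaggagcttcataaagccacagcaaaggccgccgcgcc

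The first 2 sequences are rich in CG dinucleotides, with 19 in the Negr1 stretch and 24 in that of Gata2. Those of Erg, Il7r and Prf1 hold 3, 1 and 4. Tnf (10) lies between, and Tbx21 (16) shows that plasma-cell-only starts are not all poor in CG. Nor are pc-BMAC-only starts all rich in it: the windows of Phyhd1, not shown, had ratios of observed to expected CpG of 0.09 and 0.0. Over whole start windows, the ratio of observed to expected CpG had a median of 0.61 in the 150 pc-BMAC-only windows (quartiles 0.4 and 0.84) and 0.49 in the 178 plasma-cell-only windows (quartiles 0.24 and 0.78). A ratio above 0.6 was found in 50.7% of the pc-BMAC-only and 38.8% of the plasma-cell-only windows. Windows in regions called in all 4 libraries had a median of 0.8 and 80.1% above 0.6, against 0.57 and 47.6% over all 21262 windows. Both kinds of differing start therefore had medians nearer to that of all windows than to that of the starts all 4 libraries shared. The value over all windows mixes unlike classes: windows in no region had a median of 0.23 and those in regions of other patterns 0.59.

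**Figure D1:**
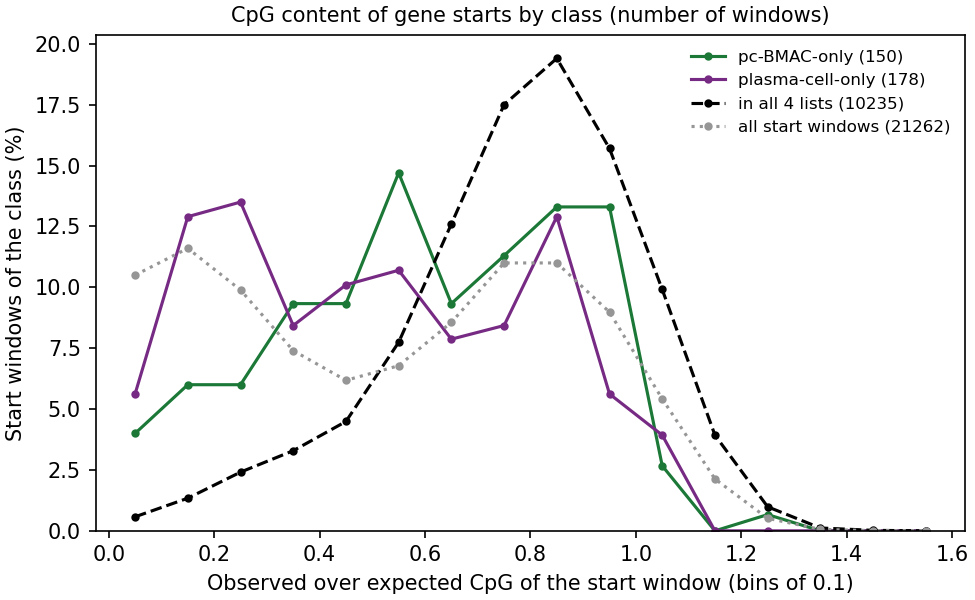
Share of start windows (%) in each bin of observed over expected CpG (x axis, bins of 0.1) for windows in pc-BMAC-only regions, in plasma-cell-only regions, in regions called in all 4 libraries and over all windows. Between 0.1 and 0.3 the plasma-cell-only line (12.9% and 13.5%) lies above the pc-BMAC-only line (6.0% in both bins), and regions in all 4 libraries peak between 0.8 and 0.9 (19.4%).

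Negr1 (chromosome 3, 156561790 to 157316464) encodes a cell adhesion molecule best known from neurons. The 6 regions assigned to it were called 6 and 5 times in pc-BMACs 1 and 2 and 0 times in each plasma cell and immature B cell library. The region over its start was covered by peaks for 783 and 916 bp in the pc-BMAC libraries. All 6 regions were thus absent from the other 4 libraries, and 5 of them were pc-BMAC-only. Gata2, a transcription factor of blood stem cells and mast cells, had peaks of 198 and 239 bp at its start in pc-BMACs and none elsewhere. Tnf, which encodes the inflammatory cytokine, had 349 and 468 bp in pc-BMACs, none in plasma cells, and 358 and 0 bp in immature B cells.

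Other pc-BMAC-only starts named here were likewise chosen after their values were seen. They include immune genes: Il17c, a cytokine of epithelia, Slamf8, a receptor of myeloid cells, Tlr5, the flagellin receptor, and Csf2rb2, a chain of the interleukin-3 receptor. Ifi30, the thiol reductase that prepares antigens for presentation, stood out by its width, 2708 and 2302 bp in pc-BMACs and 2387 and 2351 bp in immature B cells, with no peak in plasma cells. Developmental and neural genes were present too, as they were among plasma-cell-only starts, for example Dach2, Flrt3 and Axin2. The share of such genes was not computed for either class or over all starts. The start of Neurog3, a factor of pancreatic endocrine precursors, had 382 and 363 bp in pc-BMACs and no peak in the other 4 libraries. Pitx3, a homeobox factor of the lens and dopamine neurons, had 1183 and 1064 bp, and the neighbouring receptor genes Gabra4 and Gabrb1 shared 1 region with 748 and 648 bp. Onecut1, Sct (secretin), Fgfr4 and Wnt5b also had starts called in pc-BMACs alone of the 6 libraries. Wnt1, Wnt2b and Nkx2-4 each had a peak in 1 immature B cell library as well, and Tph2 in both. Of the 140 genes, 76 had the differing start in neither immature B cell library and 37 in both.

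Plasma-cell-only starts were more often shared with immature B cells: for 122 of 165 genes both immature B cell lists held the start, and for 28 neither did. Over all merged regions, at starts or not, 63.6% were in both lists and 29.0% in neither, so most sharing is not particular to this class. The like share over all starts was not computed. Erg, an ETS factor of blood progenitors, had peaks of 150 and 150 bp at this start in plasma cells, 209 and 167 bp in immature B cells and none in pc-BMACs. Il7r, the interleukin-7 receptor on which B precursors depend, had 231 and 261 bp in plasma cells, 276 and 276 bp in immature B cells and none in pc-BMACs. The same pattern held at Rag2, a subunit of the V(D)J recombinase, and Igll1, part of the surrogate light chain. It also held at Cd22, an inhibitory receptor of B cells, and at Il2ra, Il12rb2, Slamf1 and Tnfsf8, which encode cytokine receptor chains and lymphocyte surface molecules. Only in the plasma cell libraries was a peak called at Gzma, a granule protease of killer cells (320 and 227 bp), S100a8, a calgranulin of neutrophils (150 and 475 bp), Fcer1g, an Fc receptor chain (287 and 319 bp), and the red cell antigen genes Ackr1 (280 and 188 bp) and Art4 (363 and 258 bp). Prf1, the pore-forming protein of killer cells, had 289 and 187 bp for plasma cells and 289 and 268 bp for immature B cells. Tbx21, the factor T-bet, had 803 and 717 bp for plasma cells and 189 and 0 bp for immature B cells.

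A naming rule took 8 genes for each direction, by a differing start and the number of differing regions. For pc-BMACs these were Negr1, Dyrk1a, Nox1, Dgcr6, P4ha2, Dock9, Mmp15 and Myof. Dyrk1a, a protein kinase, had 22 and 13 of its regions called in pc-BMACs, against 10 and 8 for plasma cells. Myof, a membrane repair protein, had 9 and 4 in pc-BMACs, against 7 and 5 for plasma cells, so the populations overlapped, and its balance of 3 against 2 differing regions turned without pc-BMACs 1 or plasma cells 2. For plasma cells the rule took Erg, Anxa1, Runx3, Crybg1, Dennd2d, Pakap, Sv2b and Tmtc1, of which Pakap had a pc-BMAC-only start as well. Anxa1, a phospholipid-binding protein with anti-inflammatory action, had all 4 of its regions called in every plasma cell and immature B cell library and in neither pc-BMAC library. Some genes with a differing start had another start that was called throughout: 12 of the 140 and 10 of the 165 had a second window in a region called in all 4 libraries.

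Among 15 short motifs (letters in the account of the processing), searched on both strands of the start windows, the shares in the differing classes mostly lay near those of all windows. The EBF site (CCCNNGGGA) was found in 6.0% of pc-BMAC-only windows, 12.9% of plasma-cell-only windows and 7.26% of all windows. The Runx site (TGTGGTT) was found in 3.33%, 8.99% and 4.71%. The GATA site (AGATAAG) was in 0 of 150 pc-BMAC-only windows, in 6 plasma-cell-only windows (3.37%) and in 2.64% of all windows. Of the sequences shown, that of Erg holds a GATA match 104 bases before the start and a match to the ETS-IRF element (GGAANNGAA) 21 bases before it, but both lie outside the plasma-cell-only region, which begins farther upstream. The E-box CAGGTG was about equally frequent in both directions (26.7% and 27.0%) and in 19.7% of all windows. The ETS site CCGGAAGT was rare at differing starts: 1 of 150 and 1 of 178 windows held it, against 9.8% of windows in regions called in all 4 libraries and 5.15% of all windows. The cyclic AMP response element (TGACGTCA) was in 4 pc-BMAC-only windows (2.67%), 1 plasma-cell-only window (0.562%) and 2.23% of all. Motifs with so few matches give shares that 1 or 2 windows can move, and a match is not a bound site.

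Over all differing regions, nearly all of which lay away from gene starts, the relation to immature B cells had the same direction. Of the pc-BMAC-only regions, 17.5% (95% Wilson interval 16.4 to 18.7, counting error only) had a peak in both immature B cell lists and 71.4% in neither. Of the plasma-cell-only regions, 72.0% (70.7 to 73.2) were called in both and 20.9% in neither. Regions called in all 4 libraries were in both immature B cell lists in 85.9% of cases. Over all 51300 merged regions, 63.6% were in both lists and 29.0% in neither. The plasma-cell-only shares lay nearer to these values than the pc-BMAC-only shares. The immature B cell lists were also the longest, with 51643 and 46534 peaks. Leaving out each of the 4 libraries in turn kept the pc-BMAC-only share in both lists below the plasma-cell-only share. The shares ran from 17.7% to 24.6% for pc-BMAC-only and from 59.5% to 73.4% for plasma-cell-only regions. Requiring fewer libraries raised the counts themselves: without pc-BMACs 2 the first kind numbered 8961. The second numbered 7971 without plasma cells 1 and 7860 without plasma cells 2.

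**Figure D2:**
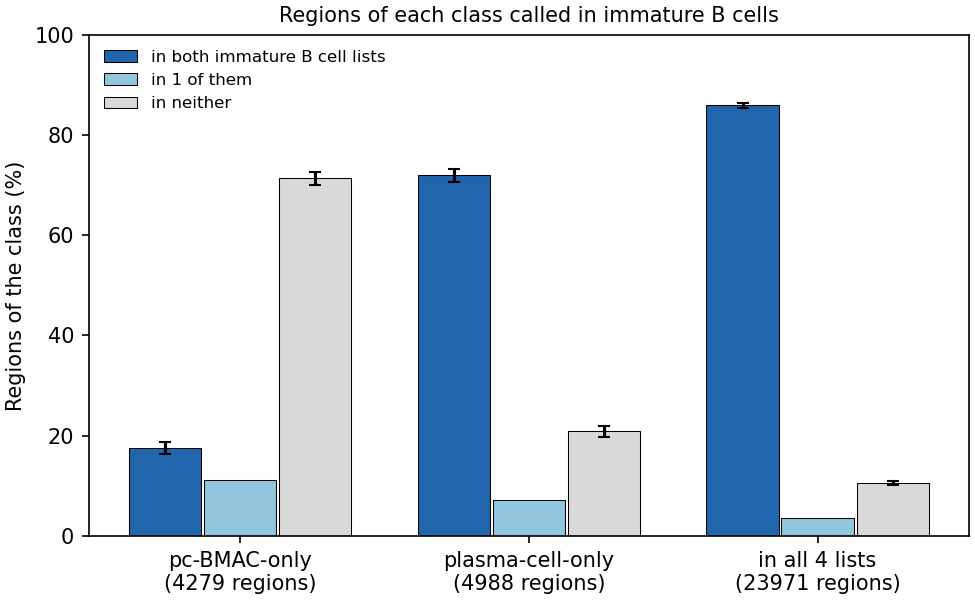
Share of regions (%) called in both, 1 or neither of the immature B cell lists, for pc-BMAC-only regions, plasma-cell-only regions and regions called in all 4 libraries; bars on the both and neither columns are 95% Wilson intervals. The tallest column is neither (71.4%) for pc-BMAC-only regions and both (72.0%) for plasma-cell-only regions.

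The 2 kinds of differing region were similar in size and differed in place. Their median widths were 350 bp (pc-BMAC-only) and 322 bp (plasma-cell-only), against 894 bp for regions called in all 4 libraries. A gene start lay in 3.27% and 3.31% of them, against 33.8% of regions in all 4 libraries. A protein-coding gene was overlapped by 71.1% of pc-BMAC-only and 55.6% of plasma-cell-only regions. No protein-coding gene lay within 100 kb of 3.27% and 8.56% of them. The median distance to a gene start was 27.8 kb and 36.2 kb. Close neighbours of the other population's peaks were few: such a peak lay within 500 bp of 270 regions of the first kind and 276 of the second.

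A few differing regions were far wider than these medians, and several of them covered gene starts. The widest plasma-cell-only region covered the whole of Junb, an AP-1 subunit (chromosome 8, 84974329 to 84979121), with peaks over 4771 and 4414 bp for plasma cells and 4793 and 4312 bp for immature B cells. Neither pc-BMAC library had a peak there. The next, at Pfn1, which encodes the actin-binding protein profilin (chromosome 11, 70653196 to 70655928), had 2733 and 2402 bp in plasma cells, 2733 bp in both immature B cell libraries and none in pc-BMACs. In the other direction, the widest region lay at Rhof, a small GTPase (chromosome 5, 123135462 to 123139652), with 4182 and 4185 bp in pc-BMACs and no peak in the other 4 libraries. Rhof also held the third widest plasma-cell-only region (123131913 to 123134151), with 2239 and 925 bp in plasma cells and 1905 and 1598 bp in immature B cells, so the gene had wide peaks of both kinds side by side. Arid3a, a B cell DNA-binding protein (3186 and 1726 bp), and the kinase gene Pim1 (3166 and 3051 bp) had wide regions in pc-BMACs alone. Dusp5, Capg and Ikzf3 had wide ones shared with both immature B cell libraries, Ikzf3 (Aiolos) with 2985 and 2977 bp in pc-BMACs, 2990 and 929 bp in immature B cells and none in plasma cells. Such a gap between lists shows where a peak was called, not the amount of signal.

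Regions were then assigned to the protein-coding gene they overlapped, or else to the nearest one within 100 kb. Of 49242 assigned regions, pc-BMAC-only ones numbered 4139 (8.41%) and plasma-cell-only ones 4561 (9.26%). Of the 14210 genes that received a region, 2180 (15.3%) leaned to pc-BMACs, having more differing regions of that kind, and 2430 (17.1%) leaned to plasma cells. Differing regions of the same kind lay together: of 9246 neighbouring pairs on a chromosome, 62.4% were of one direction, where the totals alone would give 50.3%. Of 1888 genes with at least 2 differing regions, 57.6% had all of them in one direction, but the share that the totals alone would give was not computed.

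Of the genes with the largest balance towards pc-BMACs, Cacna1e and Hivep3 had the most pc-BMAC-only regions, 13 each. Cacna1e, the pore subunit of a voltage-gated calcium channel (chromosome 1, 154390806 to 154884785), had 34 and 30 of its 37 regions called in pc-BMACs 1 and 2, 18 and 12 for plasma cells and 15 and 11 for immature B cells. Its 13 pc-BMAC-only regions all overlapped the gene, and 9 of them were in neither immature B cell library. Hivep3, a zinc finger protein that binds NF-kB motifs, had 40 and 34 of 44 regions called in pc-BMACs, against 22 and 18 for plasma cells. Rab11fip4, an effector of recycling endosomes, had 22 and 19 against 9 and 9. Foxp1, a forkhead factor of B cells, had 67 and 50 against 46 and 42. At each of these genes both pc-BMAC libraries lay above both plasma cell libraries, and the immature B cell libraries lay near the plasma cells. The genes were ranked by their pc-BMAC-only regions, which favours that order of pc-BMACs and plasma cells. Only the immature B cell values took no part in the ranking. Chst1, a sulfotransferase, was called at 17 and 14 regions in pc-BMACs, 6 and 6 for plasma cells and 1 and 2 for immature B cells, and its 6 pc-BMAC-only regions all lay outside the gene, 14.8 to 69.7 kb from it. Igf1r, the insulin-like growth factor receptor, and Rptor, the subunit that defines mTOR complex 1, each had 6 pc-BMAC-only regions and none of the other kind. The same was true of Tcf12, an E protein, and Creb3l2, a membrane-bound factor of the secretory pathway. Cpeb3, Slc39a11 and Srbd1 had 7 against 0 each.

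The genes with the largest balance towards plasma cells mostly shared their regions with immature B cells. Tmem108 (chromosome 9, 103482936 to 103761900) had 4 and 3 of 18 regions called in pc-BMACs, 14 and 17 for plasma cells and 18 and 16 for immature B cells. Pde4d, which breaks down cyclic AMP, had 8 and 2 in pc-BMACs, 17 and 19 for plasma cells and 20 and 19 for immature B cells, and all 9 of its plasma-cell-only regions had peaks in both immature B cell lists. Pmepa1, an inhibitor of TGF-beta signalling (chromosome 2, 173224458 to 173276731), had 3 and 3 against 11 and 10. Erg (chromosome 16, 95359169 to 95586600) had 0 and 0 in pc-BMACs, 8 and 9 for plasma cells and 10 and 10 for immature B cells. Epb41l4b had 0 and 0 against 6 and 11. At these 5 genes the pc-BMAC libraries lay below all other libraries, although against plasma cells the ranking of the genes favours this. Osbpl3, an oxysterol-binding protein, differed from them: it had 5 and 4 in pc-BMACs, 13 and 12 for plasma cells and 6 and 6 for immature B cells, and all 7 of its plasma-cell-only regions were in neither immature B cell library. Tbc1d2b, Vps8, Atp10a, Dnm3 and Ttc7b had 6 or 7 plasma-cell-only regions and 0 pc-BMAC-only regions each. Bach2, the repressor that holds off plasma cell differentiation, had 25 and 13 of 42 regions called in pc-BMACs, and 27 and 25 for plasma cells. Its balance of 7 towards plasma cells turned without pc-BMACs 2, to 3 towards pc-BMACs. The 7 plasma-cell-only regions had no peak in either pc-BMAC library, so they still met the rule in that run. A peak in the remaining pc-BMAC library then sufficed for its population, so more regions could count as pc-BMAC-only.

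**Figure D3:**
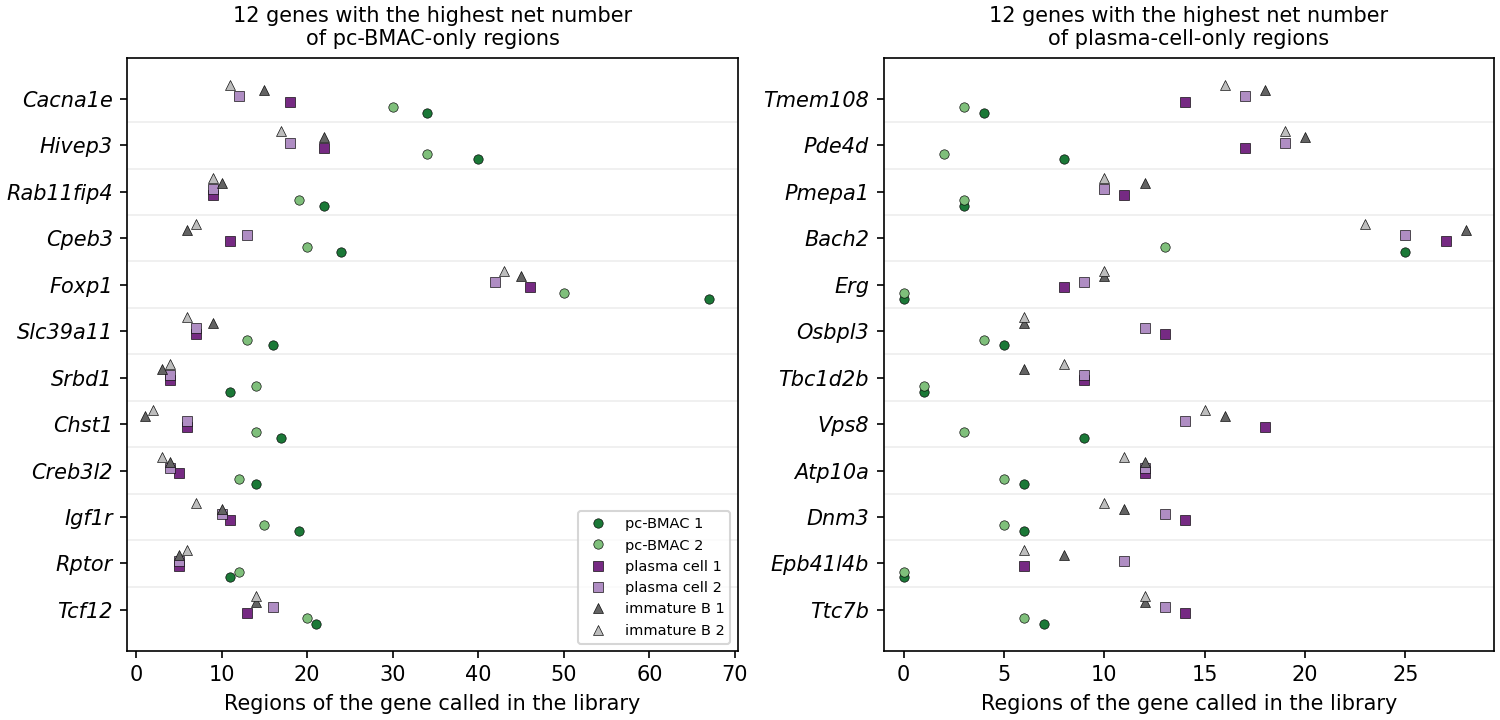
Number of a gene's regions called in each library (x axis) for the 12 genes with the highest net number of pc-BMAC-only regions (left) and of plasma-cell-only regions (right); circles are pc-BMACs, squares plasma cells, triangles immature B cells. Cacna1e has 34 and 30 in pc-BMACs, against 18 and 12 for plasma cells; Erg has 0 in both pc-BMAC libraries and 8 and 9 in plasma cells.

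Differing regions also formed runs, that is, consecutive merged regions all of one kind and no more than 50 kb apart. The longest pc-BMAC-only run held 6 regions over 92.2 kb at Ppm1l and B3galnt1 (chromosome 3, 69488239 to 69580407), of which 5 were in neither immature B cell library. Runs of 5 lay at Hivep3 (32.8 kb), at Rere, a nuclear receptor corepressor (27.8 kb), at Ltbp1 and at Rptor. All regions of the Rere and Hivep3 runs were in neither immature B cell library. The longest plasma-cell-only run held 8 regions over 39.0 kb between Map4k4 and Il1r2, the decoy receptor of interleukin-1 (chromosome 1, 40045793 to 40084779), and all 8 were in both immature B cell libraries. A run of 7 lay at Adamts7 and Tbc1d2b (47.9 kb), with 5 in both. The third, of 6 regions over 59.4 kb, spanned Adamts14, Prf1 and Pald1 (chromosome 10, 61275613 to 61335021), and 4 of its 6 regions were in neither immature B cell library.

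The gates were checked at the genes of their markers. Sdc1 had 6 and 7 regions called in pc-BMACs, and 9 and 9 for plasma cells, Tnfrsf13b 8 and 7 against 8 and 8, and Tnfrsf17 4 and 4 against 4 and 3. The starts of Tnfrsf13b and Tnfrsf17 lay in a peak in all 4 libraries and in neither immature B cell library, while that of Sdc1 lay in a peak in all 6. All 6 regions of Xbp1 were called in all 4 libraries. Irf4 had 3 regions called in each of the 6 libraries. Of its 4 regions, a pc-BMAC-only one (216 and 194 bp, chromosome 13, 30738404 to 30738803) lay 10.4 kb from the gene and a plasma-cell-only one (510 and 239 bp, 30736611 to 30737120) 12.1 kb from it. Of 21 regions of Prdm1, 4 were pc-BMAC-only and 3 were plasma-cell-only, and its called totals, 13 and 12 against 13 and 12, were equal. The widest differing one, 1334 and 799 bp in pc-BMACs (chromosome 10, 44450855 to 44452188), lay inside Prdm1. Leaving out either plasma cell library turned the balance of Prdm1 to -1. Ptprc, which encodes B220, had 1 region of each kind.

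The Aire locus itself was crowded with peaks in every library, sorted for the reporter or not. The start of Aire (chromosome 10, 78030022 to 78043610, minus strand) lay in a peak in all 6 libraries, and the 1 region assigned to Aire was called in all 6. In a window of 70 kb to each side of the gene, chosen after the peaks were seen, peaks covered 19.3% and 30.9% of the bases in pc-BMACs 1 and 2 and 19.6% and 74.1% in plasma cells 1 and 2. The cover was 22.9% and 26.1% for immature B cells. Windows of this length over the whole genome averaged 0.792% to 1.36%. Of 17709 such windows tiled along the chromosomes, at most 3 had more bases covered in any one library, and none in pc-BMACs 2, plasma cells 2 or either immature B cell library. Plasma cells 2 stood apart: its 9 peaks there reached 37127 bp, and 5 of the 6 peaks over 10 kb in its whole list lay in this window. The 1 region assigned to G6pc2 (496 bp, chromosome 2, 69226553 to 69227048) was called in pc-BMACs 2 (437 bp) and plasma cells 2 (347 bp), the libraries with the highest cover at Aire, and in no other. The reporter transgene holds DNA of both loci, and reads from it and from the endogenous genes cannot be told apart in these lists. No region of Aire or G6pc2 differed between the populations by the rule. Of the 17246 bp of the Aire region, a peak of plasma cells 2 covered 17233 bp and each other library 1180 to 2976 bp. That peak left no room for a pc-BMAC-only region there, so the lack of one says nothing about the populations. The region ended at 78042727, short of the start of Aire.

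**Figure D4:**
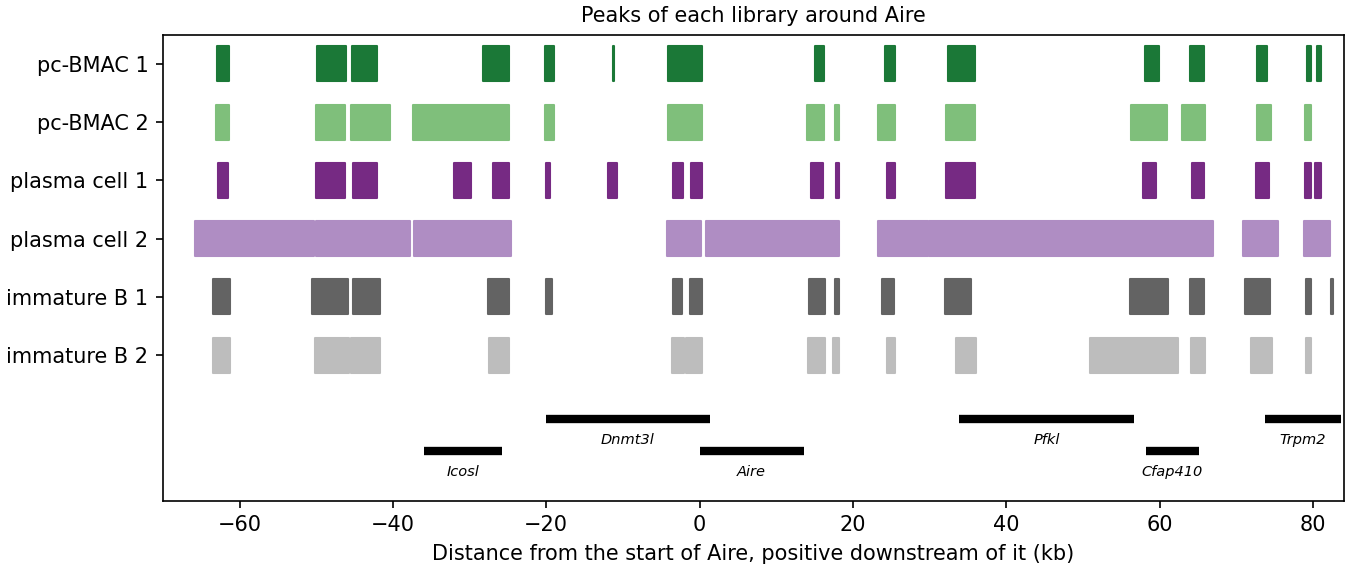
Peaks of each library (bars) along the window around Aire, as distance from its start in kb, positive downstream; genes are drawn below. Plasma cells 2 has 9 peaks that cover 74.1% of the window, the other libraries 14 to 18 peaks that cover 19.3% to 30.9%.

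Gene lists were read against the shares of all assigned regions, 8.41% for pc-BMAC-only and 9.26% for plasma-cell-only. The plasma cell list had 35 pc-BMAC-only (12.6%) and 15 plasma-cell-only (5.42%) of 277 regions. Of its 28 genes, 11 had more pc-BMAC-only regions, 6 fewer and 11 neither. Fndc3b, a membrane protein of secretory cells, had 7 pc-BMAC-only regions, and Zbtb20, a zinc finger factor of plasma cell survival, had 4; no immature B cell library had a peak in any of them. Slamf7 and Sdc1 had 2 plasma-cell-only regions each and no pc-BMAC-only one. The balance of the list, pc-BMAC-only minus plasma-cell-only regions, was 20. It lay between 12 and 53 when 1 library was left out, the highest without pc-BMACs 2. Creb3l2, Fndc3b, Zbtb20 and Ell2 held 6, 6, 4 and 3 of this balance, while the median over the list's genes was 0.

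Lymphocyte transcription factor families had the most regions of any list, with 70 pc-BMAC-only (13.4%) and 50 plasma-cell-only (9.56%) of 523 regions. Of its 28 genes, 12 leaned to pc-BMACs and 9 to plasma cells, with a balance of 20 that ranged from 16 to 75 without 1 library, the highest again without pc-BMACs 2. Hivep3 and Foxp1 held 11 and 7 of this balance. Besides these and Tcf12, the ETS repressor Etv6 had 7 pc-BMAC-only regions of 32 and 3 of the other kind. Runx2 and Runx3 leaned the other way, while Runx1, in the early B precursor list, had 4 pc-BMAC-only regions and 3 of the other kind. Runx2 had 6 and 9 of 16 regions called in pc-BMACs, and 15 and 14 for plasma cells, and Runx3 had 14 and 14 against 18 and 15. Ets2 had 1 pc-BMAC-only region and 6 of the other kind.

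Cyclic AMP and calcium genes had many differing regions of both kinds, 52 (13.2%) and 42 (10.7%) of 393, and 8 of 30 genes leaned to pc-BMACs and 12 to plasma cells. Cacna1d, a second calcium channel gene, had 29 and 22 regions called in pc-BMACs, against 20 and 16 for plasma cells. Sik3, a kinase that restrains CREB coactivators, had 24 and 17 against 10 and 11. Nfatc1, a calcium-responsive factor, had 22 and 23 against 18 and 20. Pde4d, above, and Adcy7, an adenylyl cyclase with 6 and 5 against 10 and 7, leaned to plasma cells. Of the balance of 10 towards pc-BMACs, Cacna1e alone held 12, so the rest of the list summed to -2. The balance was -2 without plasma cells 2 and 55 without pc-BMACs 2. TGF-beta genes had 9 and 17 of 128 regions (7.03% and 13.3%), of which Pmepa1 alone held 8 plasma-cell-only ones; the receptor genes Tgfbr3 and Tgfbr1 had 2 and 1. Without pc-BMACs 2 the balance of -8 turned to 4.

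Cytokines and their receptors had 9 pc-BMAC-only (8.04%) and 25 plasma-cell-only (22.3%) of 112 regions. Of the 21 genes with a region, 6 leaned to pc-BMACs and 9 to plasma cells. Ifng, the gene of interferon-gamma, had 1 and 1 of 6 regions called in pc-BMACs, 5 and 6 for plasma cells and 6 and 6 for immature B cells. All 4 of its plasma-cell-only regions lay outside the gene, 23.0 to 70.3 kb away. Ifngr1, a chain of its receptor, had 1 and 1 against 5 and 7. Il4ra, the interleukin-4 receptor chain, had 3 and 3 against 6 and 6. Il6, a plasma cell survival cytokine, leaned to pc-BMACs with 3 and 3 against 1 and 1. Of the 25 plasma-cell-only regions, 20 had a peak in both immature B cell lists. The balance of -16 lay between -18 and -11 when 1 library was left out, and was -3 with peaks of at least 300 bp and -1 when only regions that overlap a gene were counted.

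B cell identity genes had 21 (6.31%) and 38 (11.4%) of 333 regions, and early B precursor genes 18 (11.5%) and 26 (16.6%) of 157. Erg alone held 7 of these 26, where the balance of the precursor list was -8. In that list 5 genes leaned to pc-BMACs and 6 to plasma cells. Pax5, the factor that commits cells to the B lineage, had 7 and 5 of 12 regions called in pc-BMACs, against 11 and 9 for plasma cells, with 0 pc-BMAC-only and 4 plasma-cell-only ones. Its balance turned to 1 towards pc-BMACs with peaks of at least 300 bp. Ebf1, its partner factor, had 25 and 19 against 26 and 29, so its groups were 1 region apart. Il7r had 0 and 0 of 4 against 3 and 4. Kit, the stem cell factor receptor, leaned to pc-BMACs with 5 and 5 of 5 against 3 and 2. Without pc-BMACs 2 both lists turned, to 22 and 7 regions towards pc-BMACs. In that run a peak in pc-BMACs 1 sufficed for its population, and the totals over all regions moved as well, to 8961 and 5527.

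The secretory pathway list, which holds chaperones and sensors of unfolded protein, had 7 (6.8%) and 5 (4.85%) of 103 regions, and 22 of its 29 genes with a region leaned neither way. Its balance of 2 was 10 without pc-BMACs 2. Atf6, a sensor, had 15 and 13 regions called in pc-BMACs, against 10 and 11 for plasma cells. Antigen presentation genes had 8 (5.52%) and 10 (6.9%) of 145, and Ciita, the master regulator of class II genes, had 1 and 3 of 9. Aire and NF-kB genes had 10 (9.43%) and 5 (4.72%) of 106, a balance of 5 that lay between 3 and 16 without 1 library, the highest without pc-BMACs 2. Nfkb1 had 16 and 13 regions called in pc-BMACs, against 12 and 8 for plasma cells, a balance that turned to -1 with peaks of at least 300 bp. Homing, adhesion and survival genes had 11 (5.5%) and 16 (8.0%) of 200. There Bcl2, the survival gene, had 30 and 19 against 18 and 14 with 5 pc-BMAC-only regions, while S1pr1, an egress receptor, had 12 and 11 against 14 and 16 with 4 plasma-cell-only ones. Without pc-BMACs 2 the balances of antigen presentation and homing genes turned to 12 and 15. Cell cycle genes had 6 (6.32%) and 8 (8.42%) of 95 and housekeeping genes 2 (4.17%) and 3 (6.25%) of 48, and these balances turned without pc-BMACs 2 to 5 and 1. The cell cycle balance also turned without plasma cells 1, to 2.

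**Figure D5:**
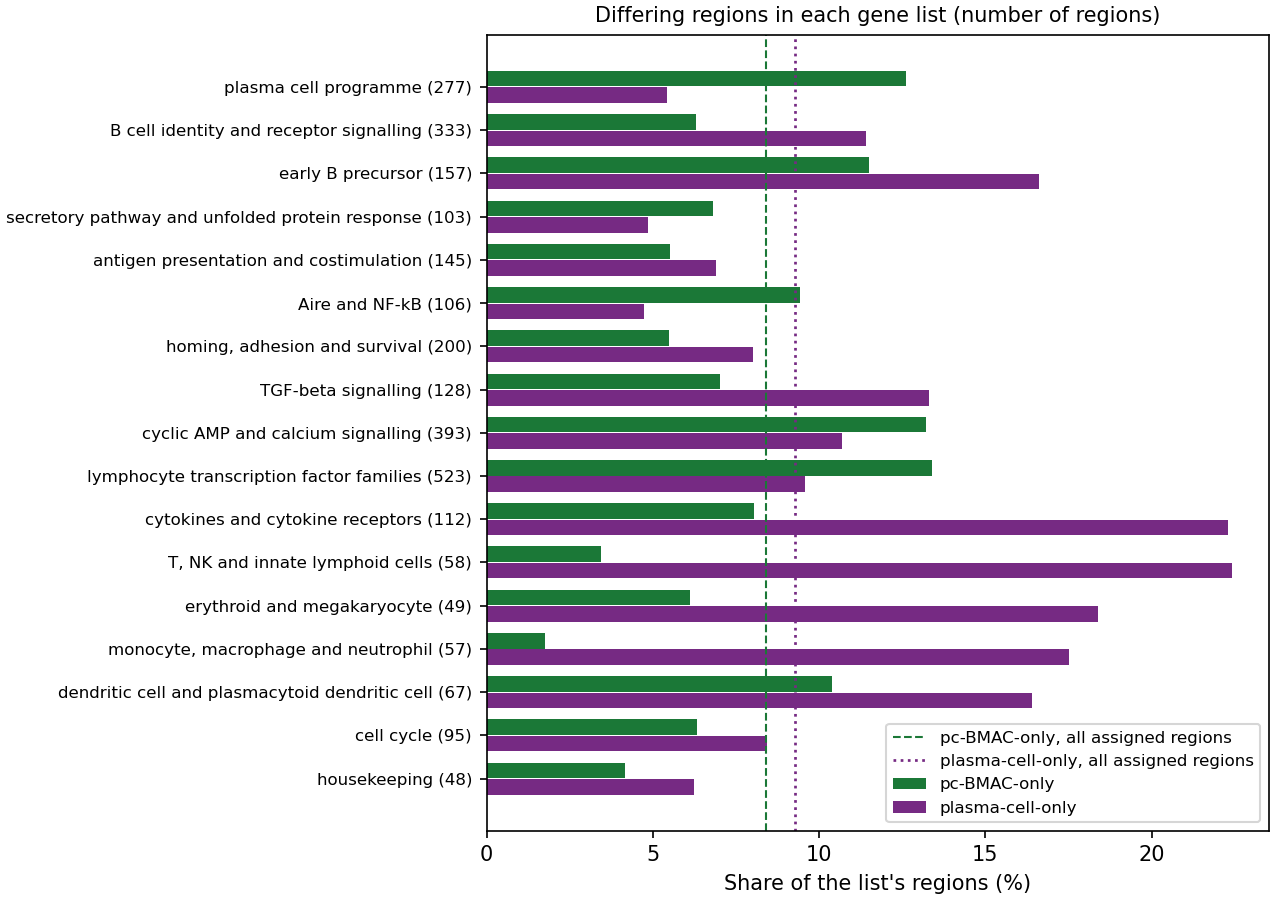
Share of each list's regions (%) that were pc-BMAC-only (green) or plasma-cell-only (purple), with the number of regions in brackets; dashed and dotted lines are the shares over all assigned regions (8.41% and 9.26%). Cytokine and receptor genes (22.3%) and the T, NK and innate lymphoid list (22.4%) have the longest purple bars, the plasma cell list (12.6%) and transcription factor families (13.4%) long green ones.

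Marker genes of other blood cells carried plasma-cell-only regions in larger shares than all regions did. The T, NK and innate lymphoid list had 2 (3.45%) and 13 (22.4%) of 58 regions. The list had 32 and 26 regions called in pc-BMACs, 44 and 44 for plasma cells and 32 and 26 for immature B cells. Among its genes, Cd8a, Ncr1, Gzmb and Nkg7 had no region, and Gzma had none assigned to it although its start lay in a plasma-cell-only one. Il2rb, a receptor chain of NK and T cells, had 3 and 2 of 7 regions called in pc-BMACs, 6 and 6 for plasma cells and 2 and 1 for immature B cells. Monocyte, macrophage and neutrophil genes had 1 (1.75%) and 10 (17.5%) of 57, with totals of 40 and 30 in pc-BMACs, 43 and 47 for plasma cells and 38 and 36 for immature B cells. Lyz2, Elane and Ly6g had no region, and 9 of the 10 plasma-cell-only regions had peaks in both immature B cell lists. Ccr2 held the 1 region that was pc-BMAC-only. Erythroid and megakaryocyte genes had 3 (6.12%) and 9 (18.4%) of 49, with totals of 23 and 22, 41 and 30, and 21 and 18. Hba-a2, Pf4 and Ppbp had no region. The single regions of the haemoglobin genes Hba-a1 and Hbb-bt, and those of Gata1 and Alas2, were missing from all libraries except plasma cells 1. Hbb-bs, another haemoglobin gene, had 2 regions, called 2 and 1 times in plasma cells and 0 and 1 times in pc-BMACs. Ank1 and Gfi1b had 2 plasma-cell-only regions each, while Epor, Tfrc and Slc4a1 leaned to pc-BMACs with 1 differing region each. The balance of the erythroid list, -6, was -18 without plasma cells 2, and that of the monocyte list, -9, was -5 without pc-BMACs 2. Dendritic cell genes had 7 (10.4%) and 11 (16.4%) of 67, with totals of 42 and 46, 52 and 52, and 52 and 48. Runx2, also in the transcription factor list, alone held 5 of the 11, where the balance of the dendritic list was -4. That balance turned to 1 with peaks of at least 300 bp. In bulk lists, other cells in a sort and open sites in the sorted cells themselves cannot be told apart, and the part of other cells in the plasma-cell-only regions was not tested.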

How the data were processed

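ATAC-seq peak lists of 6 libraries (2 each of pc-BMACs, plasma cells and immature B cells) were used as deposited. The authors' files give the position of each peak and a score that is 1000 in every row, so only presence was used. Bowtie2 2.3.3, HOMER 4.10 and bedtools are named without their roles in the submitters' processing notes, with the mm10 build (GRCm38). Per the labels' protocols, fragments over 1200 bp were removed. The sources used here do not give the caller, its threshold or the read depth.

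Peaks of 4 libraries were merged at 1 bp overlap and each region was assigned to the protein-coding gene it overlapped most, or else to the nearest within 100 kb (Python 3.11.15, numpy 2.4.6, pandas 2.3.3, scipy 1.17.1). Gene names, positions, start windows and miRNA sequences came from RefSeq GRCm38.p6, and 386 of 386 list genes matched. No genome sequence was used. Named genes were, per direction, the 12 with the largest net number of differing regions, up to 3 per list, 8 with a differing start and the longest runs, plus the sort and lineage genes; other names were chosen after their values were seen. A few genes are not reported here. Members and lists were chosen with earlier results of these data known. The counting was tested on simulated peak lists. Whether replicates are separate animals is not stated, so spread between libraries may be technical.

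Motifs were searched on both strands: GAAANNGAA (interferon-stimulated response element core), GGAANNGAA (ETS-IRF element, which can overlap the former), CCGGAAGT (ETS), GGGGCGGGG (GC box), CCAATCA (the so-called CCAAT box), TGACGTCA (cyclic AMP response element), TGACGTGG (unfolded protein response element core), ATGCAAAT (octamer), TGANTCA (AP-1), TGTGGTT (Runx), CAGGTG (E-box), CCCNNGGGA (EBF), GGGANNTCC (NF-kB), AGATAAG (site of GATA factors) and CCACNAGGG (CTCF core). Alternatives changed the overlap, list length, peak width, merging, distance, assignment and libraries used.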

Additional observations from a re-analysis of the deposited data

How the results depend on the processing

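The lists hold no read counts, so a peak missing from a list may lie just under the calling threshold, and depth cannot be set beside any value. No paired analysis was possible because the results come from no test and only 1 plasma cell and 1 pc-BMAC library share an R number. That pair alone gave 7028 regions towards pc-BMACs and 10285 towards plasma cells, 253 and 345 genes with a differing start, and shares in both immature B cell lists of 24.3% and 61.8%. With at least 50% of a region covered, there were 6466 pc-BMAC-only regions and 438 such starts, with shares of 31.0% and 73.5%. With lists of equal length the shares were 20.4% and 74.6%. With peaks of at least 300 bp there were 2325 plasma-cell-only regions, 104 starts and a share of 73.5%. Leaving out 1 library gave 5186 to 8961 pc-BMAC-only regions (the most without pc-BMACs 2) and 5527 to 7971 plasma-cell-only regions (the most without plasma cells 1). It gave 180 to 263 and 194 to 274 starts, and shares of 17.7% to 24.6% and 59.5% to 73.4%. The share was the lower for pc-BMAC-only regions under each alternative run.

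Of 17 lists 8 and of 131 genes with a balance other than 0, 117 did not reverse under any alternative. A balance that fell to 0 did not count as reversed, so this count overstates how stable the balances were. With peaks of at least 300 bp, 48 of the 138 named genes kept a similar balance, 83 moved and 7 reversed. With only regions that overlap a gene, 83 kept it, 54 moved and 1 reversed. The most stable run, which merged over 6 lists, kept 131 and moved 7. Without pc-BMACs 2 the balance reversed for B cell identity (22), early B precursor (7), antigen presentation (12), homing (15), TGF-beta (4), cell cycle (5) and housekeeping genes (1), and for Bach2 (3) and Pald1 (1). Without pc-BMACs 1 it reversed for Myof (-1). Without plasma cells 1 it reversed for cell cycle genes (2) and Prdm1 (-1), and without plasma cells 2 for cyclic AMP and calcium genes (-2), Myof (-1), Pdcd1lg2 (-1) and Prdm1 (-1). The pair alone reversed cyclic AMP and calcium genes (-8), Myof (-3), Pdcd1lg2 (-1) and Prdm1 (-1). Cover of 50% reversed antigen presentation (8), housekeeping (3) and Myof (-1). Equal lengths reversed cell cycle genes (3). Peaks of at least 300 bp reversed TGF-beta (1), dendritic cell (1) and housekeeping genes (1), Blk (-1), Crybg1 (1), Eaf2 (1), Eif2ak3 (1), Myb (-1), Nfkb1 (-1) and Pax5 (1). Assignment within 20 kb reversed housekeeping genes (1) and Nfatc2 (1), and counting only regions that overlap a gene reversed housekeeping (2), homing (1) and Nfatc2 (1). Over the runs without 1 library, balances ranged from -31 to 22 (B cell identity), -21 to 7 (early B precursor), -6 to 12 (antigen presentation), -13 to 15 (homing), -14 to 4 (TGF-beta), -2 to 55 (cyclic AMP and calcium), -11 to 5 (cell cycle), -4 to 1 (housekeeping) and -12 to 3 (Bach2). The cause was not tested.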

Other observations

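MicroRNA hairpins were seldom in differing regions: of 1005 hairpins in the RefSeq table, 5 (0.498%) lay in a pc-BMAC-only region, 1 (0.0995%) in a plasma-cell-only region and 87 (8.66%) in a region called in all 4 libraries. Mir9-1, a microRNA gene best known from neural tissue, Mir3093 and Gm25641 shared 1 pc-BMAC-only region on chromosome 3, with peaks over 710 and 338 bp in pc-BMACs, none in plasma cells, and 150 and 0 bp in immature B cells. Mir138-2 had 189 and 230 bp in pc-BMACs and 230 and 150 bp in immature B cells. Mir7085 had 660 and 471 bp in pc-BMACs alone. Mir6367 had 323 and 270 bp in plasma cells alone. The mature sequences from the 5′ arms of 2 of these show unlike seeds (bases 2 to 8, in capitals).
mmu-miR-9-5p: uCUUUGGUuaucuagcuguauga
mmu-miR-138-5p: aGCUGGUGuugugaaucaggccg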
